A study of Mus musculus with 12 samples.

Results

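The gp130 cytokine genes described here are 10 genes chosen by name from 44345 in the count table: the receptor genes Il6st, Lifr, Osmr, Il6ra and Cntfr, the ligand genes Lif and Cntf, the kinase genes Jak1 and Jak2, and the feedback inhibitor gene Socs3. All 10 had a row in each RNA library, and 9 passed the filter on low counts. Cntf did not, with 1 to 19 reads per library. They were measured in lumbar dorsal root ganglia (L4 to L6) of C57BL/6 mice aged 6 to 8 weeks, all with the dorsal columns of the spinal cord cut 24 h before. One group was injected intraperitoneally with MS275 (also called entinostat), a drug that blocks class I histone deacetylases, at 12 mg/kg, and the other with its vehicle of Tween80, PEG300 and DMSO. Injections were made at injury and 2 h ahead of tissue collection. There were 3 RNA libraries with MS275 and 3 with vehicle, and each pooled the ganglia of 2 mice. ATAC-seq, in which a transposase tags accessible DNA, was run on 3 mice per treatment, and 1 combined peak list per treatment was used. No uninjured animals were analysed here, so every value is one of injured tissue.

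Interleukin-6, leukaemia inhibitory factor (LIF), ciliary neurotrophic factor (CNTF) and oncostatin M share the receptor chain gp130, the product of Il6st. A ligand brings gp130 together with a partner chain, the JAK kinases bound to their tails phosphorylate them, and STAT3 is recruited, enters the nucleus and activates genes that include Socs3, whose product then blocks the receptor. In sensory ganglia this route is known for its part in the response of neurons and glia to nerve injury and in axon growth.

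The promoters of Jak2 and Osmr, which changed and had open chromatin at their start, and of Socs3, the feedback gene of the route, are shown from 250 bases before to 50 bases after the annotated start, in RefSeq's sequence of GRCm38.p6. Capitals mark matches to the STAT motif TTCNNNGAA and to the GC box GGGCGG on either strand. For Socs3 and Osmr, the RefSeq gene span reaches farther upstream than the window, to 117970336 and 6874968. The start used for them is thus not the outer end of the gene.
Socs3, chr11:117969317-117969616, minus strand: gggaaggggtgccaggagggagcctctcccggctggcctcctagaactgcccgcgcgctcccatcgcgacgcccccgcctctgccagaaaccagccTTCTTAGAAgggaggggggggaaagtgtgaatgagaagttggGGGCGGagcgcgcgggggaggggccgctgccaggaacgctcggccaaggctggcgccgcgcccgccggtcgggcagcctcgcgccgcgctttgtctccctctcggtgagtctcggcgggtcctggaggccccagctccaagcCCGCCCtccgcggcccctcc
Jak2, chr19:29251553-29251852, plus strand: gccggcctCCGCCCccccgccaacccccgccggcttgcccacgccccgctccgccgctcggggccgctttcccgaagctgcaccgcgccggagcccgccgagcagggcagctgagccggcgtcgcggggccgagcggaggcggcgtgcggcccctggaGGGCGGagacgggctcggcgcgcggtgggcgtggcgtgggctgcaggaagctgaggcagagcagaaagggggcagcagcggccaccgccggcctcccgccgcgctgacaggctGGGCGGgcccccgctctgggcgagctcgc
Osmr, chr15:6874264-6874563, minus strand: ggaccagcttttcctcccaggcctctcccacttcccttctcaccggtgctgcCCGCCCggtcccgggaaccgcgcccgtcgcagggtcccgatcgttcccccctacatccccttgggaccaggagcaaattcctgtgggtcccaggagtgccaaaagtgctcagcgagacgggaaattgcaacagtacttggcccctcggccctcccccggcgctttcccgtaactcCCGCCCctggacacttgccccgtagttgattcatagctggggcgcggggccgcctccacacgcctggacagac
The 10 genes had 16 promoter windows between them in the RefSeq table, and the Socs3 window was the one that held TTCNNNGAA, 154 bases before the start. Over all 32851 promoter windows of that length, 8.3% held this motif and 35.7% the GC box. Jak2 had 3 matches to the GC box, and Socs3 and Osmr had 2 each. The Osmr window also held 1 match to the AP-1 motif TGANTCA, found in 7.81% of all windows and not capitalised here. No STAT match was found in the Jak2 and Osmr windows, which says only that these letters are not there.

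RNA libraries held 34992533 to 60370523 reads assigned to genes, and levels are given in CPM (read counts scaled to library size with TMM factors). The groups were separated on the first component of the log2 CPM, which held 46.6% of the variance, and MS275 replicate 1 lay farthest out. That library also had the highest summed level of 9 skeletal muscle genes, 642 CPM against 90.2 and 96.0 CPM in the other MS275 libraries and 6.11 to 56.0 CPM in vehicle, and of 10 neutrophil genes, 255 CPM against 44.2 and 74.3 CPM in the other MS275 libraries and 39.7 to 67.0 CPM in vehicle. The ganglion's own cell types were present in all libraries: 9 sensory neuron genes summed to 23696 to 26407 CPM with MS275 and 22511 to 23657 CPM in vehicle, and 7 Schwann cell genes to 5379 to 6053 CPM with MS275 and 4892 to 5957 CPM in vehicle. No listed marker of these types was at 0 in every library. MS275 replicate 1 also had the highest summed erythroid, macrophage, fibroblast and endothelial levels. Its erythroid genes summed to 142 CPM, against 31.5 and 48.7 CPM in the other MS275 libraries and 51.1 to 63.8 CPM in vehicle. Its macrophage genes summed to 73.3 CPM, against 60.9 and 59.5 CPM in the other MS275 libraries and 56.5 to 61.7 CPM in vehicle. In edgeR's quasi-likelihood test with Benjamini-Hochberg adjustment, 858 of 16819 genes were higher (5.10%) and 991 lower (5.89%) with MS275. That the triplicates were biological is stated in the series' design text.

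Of the 9 genes of the group that could be tested, 2 rose with MS275 (Cntfr and Osmr, both receptor genes), 1 fell (Jak2), and 6 did not pass an adjusted p of 0.05. The share of all genes called was 11.0%, and with 9 genes, picked by name with earlier results known, the count of 3 is a description. The median log2 fold change of the 9 was 0.07, against 0.002 for all genes tested. Groups did not overlap for these same 3 genes, and for 33.8% of all genes.

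**Figure D1:**
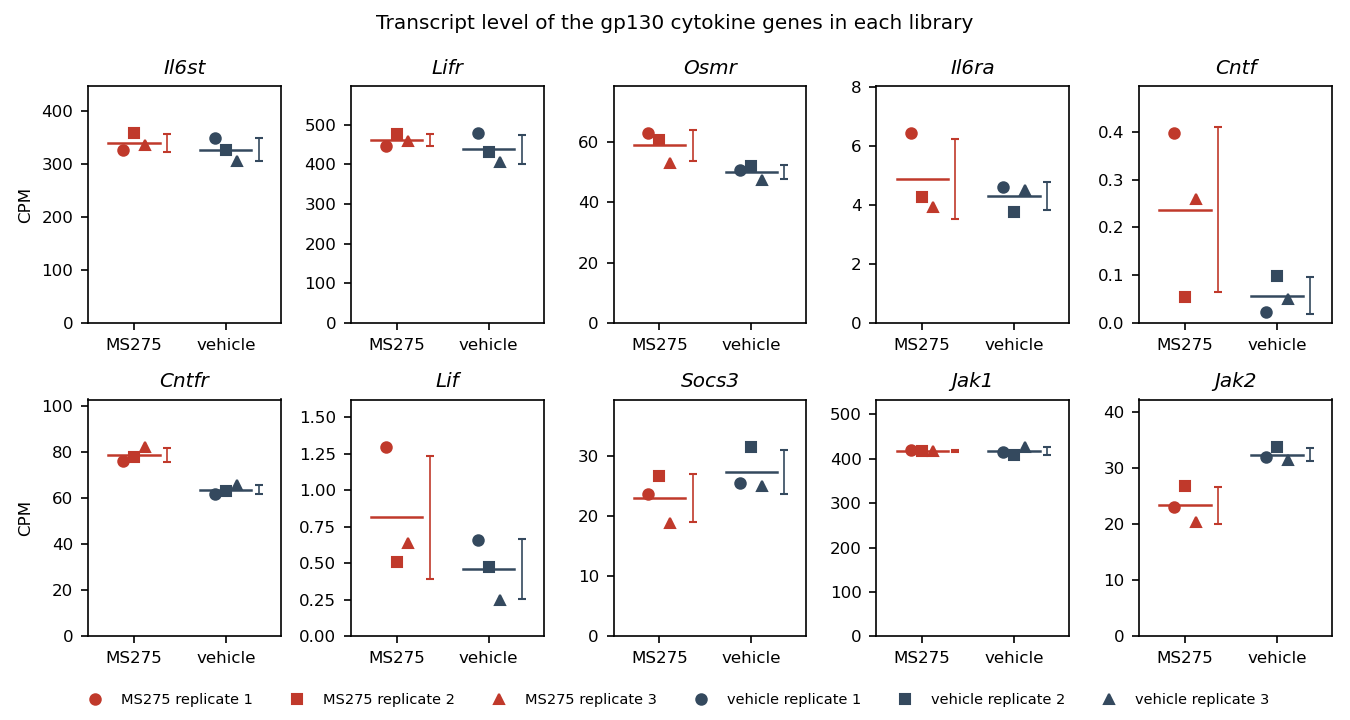
Level of each gene in CPM (vertical axes, each starting at 0) in the 3 MS275 and the 3 vehicle libraries. Symbols are replicates, horizontal lines are means, and the bars beside them span 1 SD either way. Cntfr and Osmr lie higher and Jak2 lower in all MS275 libraries, while Lif, Il6ra and Cntf are highest in MS275 replicate 1.

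The genes of the shared chain and of the LIF receptor chain did not pass, and their intervals were narrow. Il6st, which encodes gp130, had 326, 358 and 335 CPM in MS275 replicates 1, 2 and 3, against 349, 327 and 307 CPM in vehicle replicates 1, 2 and 3. The groups overlapped, and the log2 fold change was 0.053 (95% interval -0.07 to 0.18, edgeR adjusted p = 0.572). Lifr, whose product pairs with gp130 for LIF and CNTF, had 447, 477 and 458 CPM with MS275, against 478, 430 and 407 CPM in vehicle. Vehicle replicate 1 was above every MS275 library, and vehicle replicates 2 and 3 were below all of them (log2 fold change 0.071, interval -0.06 to 0.20, edgeR adjusted p = 0.462). Both intervals lay between -0.07 and 0.20. Il6st lies on chromosome 13 from 112464070 to 112506860 and Lifr on chromosome 15 from 7090610 to 7197489.

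The CNTF receptor gene rose, with the smallest adjusted p of the group. Cntfr encodes the chain that binds CNTF and, held in the membrane by a lipid anchor, presents it to LIFR and gp130. It had 76.2, 78.0 and 82.3 CPM in MS275 replicates 1, 2 and 3, against 62.0, 63.4 and 65.7 CPM in vehicle replicates 1, 2 and 3. Every MS275 library was above every vehicle library, and the values within a group lay close together, with means of 78.9 ± 3.14 CPM with MS275 and 63.7 ± 1.87 CPM in vehicle (SD, n = 3 each). The log2 fold change was 0.31 (SE 0.045, edgeR adjusted p = 0.00586), or 1.24-fold. With each library left out in turn it stayed between 0.28 and 0.33, with adjusted p of at most 0.0458. The gene lies on chromosome 4 from 41657498 to 41697091, and RefSeq lists no other gene over it.

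Osmr rose by a smaller fold, and its call was close to the threshold. Its product pairs with gp130 for oncostatin M, and with the product of Il31ra for interleukin-31, an itch cytokine sensed by a class of nociceptors. Osmr had 62.9, 60.7 and 53.2 CPM in MS275 replicates 1, 2 and 3, against 50.6, 52.0 and 47.5 CPM in vehicle replicates 1, 2 and 3. All MS275 libraries were above all vehicle libraries, but MS275 replicate 3 exceeded vehicle replicate 2 by little. The means were 58.9 ± 5.06 CPM with MS275 and 50.02 ± 2.31 CPM in vehicle, the log2 fold change 0.24 (SE 0.07, edgeR adjusted p = 0.0474), or 1.18-fold. The adjusted p was 0.0806 without MS275 replicate 1, 0.0681 without MS275 replicate 2, 0.138, 0.119 and 0.158 without vehicle replicates 1, 2 and 3, and 0.0527 in limma voom. Osmr lies on chromosome 15 from 6813568 to 6874968. Il31ra had 27.7 ± 4.04 CPM with MS275 and 26.8 ± 0.65 CPM in vehicle (log2 fold change 0.05, edgeR adjusted p = 0.76).

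Il6ra encodes the chain that binds interleukin-6, and did not pass. It had 307, 234 and 135 reads in MS275 replicates 1, 2 and 3, or 6.42, 4.26 and 3.91 CPM, against 211, 230 and 179 reads in vehicle replicates 1, 2 and 3, or 4.62, 3.77 and 4.52 CPM. MS275 replicate 1 stood above the rest and the other MS275 libraries lay within the vehicle range (log2 fold change 0.19, interval -0.23 to 0.60, edgeR adjusted p = 0.554). Without MS275 replicate 1 the log2 fold change was -0.059. That replicate also had the highest summed neutrophil, muscle, erythroid, macrophage, fibroblast and endothelial levels, and any link of these to Il6ra was not tested. Of 9 tested neutrophil genes 1 rose (Elane, with 222 reads in that replicate against 35 and 33 in the other MS275 libraries). RefSeq places Gm46811, a long non-coding RNA, over Il6ra on chromosome 3 (89869324 to 89913196), and how reads in the overlap were assigned is not known.

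Neither ligand gene passed, and both gave few reads. Lif had 62, 28 and 22 reads in MS275 replicates 1, 2 and 3, against 30, 29 and 10 reads in vehicle replicates 1, 2 and 3, or 1.30, 0.51 and 0.64 CPM with MS275 and 0.66, 0.48 and 0.25 CPM in vehicle. The groups overlapped, and MS275 replicate 1 was the highest. The log2 fold change of 0.80 had an interval of -0.16 to 1.77 (edgeR adjusted p = 0.25), and it was 0.27 without MS275 replicate 1. Cntf, whose product is known as a Schwann cell factor of peripheral nerve, had 19, 3 and 9 reads in MS275 replicates 1, 2 and 3, against 1, 6 and 2 reads in vehicle replicates 1, 2 and 3. The groups overlapped, and an exact permutation test of the CPM over the 6 libraries, two-sided, gave p = 0.2, where 3 against 3 libraries can give no less than 0.1. Cntf spans 2105 bp of chromosome 19 (12763528 to 12765632), all of it inside the RefSeq non-coding entry Gm44505, which also spans the neighbouring gene Zfp91. Gm44505 had no row under that symbol in the RNA counts, and how reads of this overlap were assigned is not known. Zfp91 itself had 131 to 143 CPM with MS275 and 139 to 145 CPM in vehicle.

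Of the kinase genes, Jak2 fell and Jak1 did not pass. Jak1, known as the main kinase of gp130, had 420, 416 and 417 CPM in MS275 replicates 1, 2 and 3, against 414, 408 and 426 CPM in vehicle replicates 1, 2 and 3. Its log2 fold change of 0.0050 had the narrowest interval of the group, -0.08 to 0.09 (edgeR adjusted p = 0.945). Jak2, a kinase shared with growth hormone, erythropoietin and interferon-gamma receptors, had 23.0, 26.9 and 20.3 CPM with MS275, against 32.0, 33.8 and 31.5 CPM in vehicle. Every MS275 library was below every vehicle library, with means of 23.4 ± 3.30 CPM with MS275 and 32.4 ± 1.203 CPM in vehicle (SD, n = 3 each). Jak2 fell by 0.47 on the log2 scale (SE 0.09, edgeR adjusted p = 0.0158), the lowest fold change of the 9 genes. The adjusted p was 0.0655 without vehicle replicate 1 and 0.082 without vehicle replicate 2, with log2 fold changes of -0.47 and -0.44.

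A ratio of reads within a library does not depend on how libraries are scaled. Jak2 gave 5.48, 6.46 and 4.88 reads per 100 Jak1 reads in MS275 replicates 1, 2 and 3, against 7.73, 8.27 and 7.39 in vehicle replicates 1, 2 and 3. The ratio was thus lower in all MS275 libraries, at 0.72 times its vehicle mean, and between libraries it shows unequal change of the 2 transcripts, not which of them moved. Jak2 lies on chromosome 19 from 29251803 to 29313095 with no other RefSeq gene over it, whereas Jak1 on chromosome 4 (101151974 to 101265282) overlaps Raver2 and 3 small RNA or pseudogene entries.

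Socs3, the inhibitor that STAT3 induces, did not pass. It had 23.6, 26.7 and 18.8 CPM in MS275 replicates 1, 2 and 3, against 25.46, 31.5 and 24.95 CPM in vehicle replicates 1, 2 and 3. MS275 replicate 2 lay above vehicle replicates 1 and 3, and the other MS275 libraries below all vehicle libraries. The log2 fold change was -0.24 (interval -0.53 to 0.05, edgeR adjusted p = 0.248), so a fall of moderate size and no change were both within the error. Socs3 spans 4258 bp of chromosome 11 (117966079 to 117970336).

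**Figure D2:**
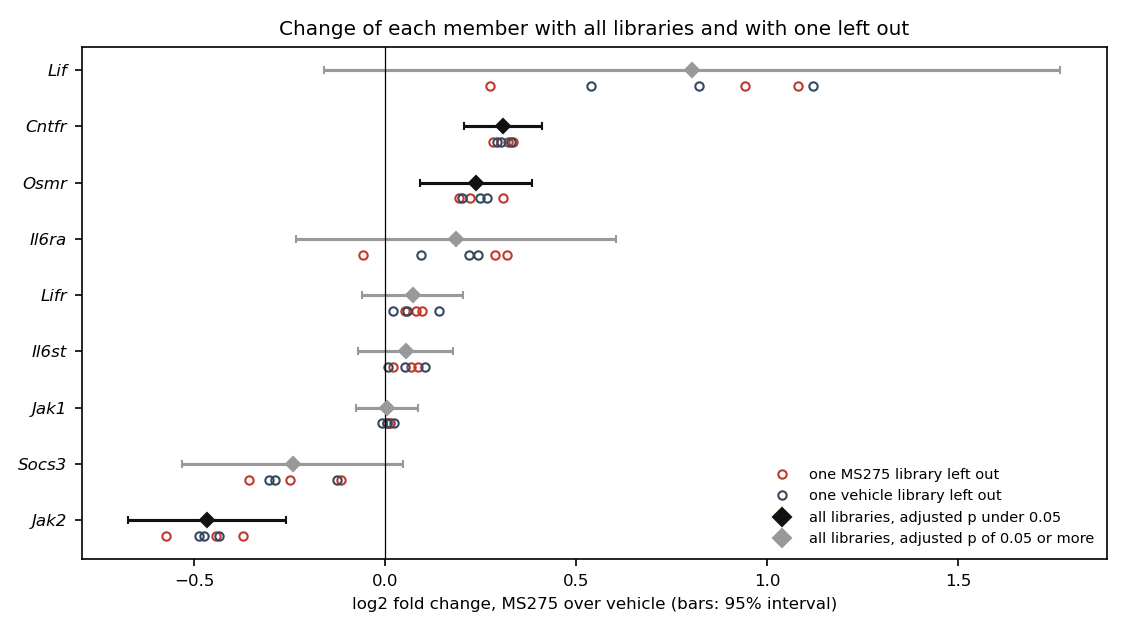
Log2 fold change of MS275 over vehicle for the 9 genes tested (horizontal axis; diamonds with 95% intervals, black for adjusted p under 0.05) and, under each, the values with 1 MS275 or 1 vehicle library left out (open circles). Cntfr stays between 0.28 and 0.33 and Jak2 below 0 throughout, while Il6ra crosses 0 without MS275 replicate 1 and Lif ranges from 0.27 to 1.12.

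These are bulk tissues, in which fewer cells of a type and less RNA per cell cannot be told apart. Beside the 3 calls, 4 of 8 endothelial genes rose (Cldn5, Pecam1, Egfl7 and Robo4), with a summed level of 135 to 158 CPM with MS275 and 112 to 124 CPM in vehicle. All 9 muscle genes rose. Of 9 neutrophil genes tested 1 rose, 4 had an unadjusted p under 0.05 in edgeR and all 9 had a log2 fold change above 0, with a median of 1.14. The summed neutrophil levels given above overlapped between the groups. Of 9 sensory neuron genes 1 rose and 5 had an unadjusted p under 0.05 in edgeR. All 9 had a log2 fold change above 0, with a median of 0.12. Their summed levels did not overlap, but by little, with 23657 CPM the highest in vehicle and 23696 CPM the lowest with MS275. Of 6 satellite glia genes 1 rose and 2 fell, with 3 at an unadjusted p under 0.05 in edgeR. Their summed levels were 879 to 889 CPM with MS275 and 852 to 871 CPM in vehicle, without overlap. Of 5 fibroblast genes 1 rose, with 1 at that p. None of 7 Schwann cell genes, 7 macrophage genes and 3 erythroid genes passed in edgeR, and 0 of each had an unadjusted p under 0.05. Over all 16819 genes tested, 28.5% had an unadjusted p under 0.05 in edgeR. With MS275 replicate 1 left out, the log2 fold changes were 0.33 for Cntfr, 0.19 for Osmr and -0.44 for Jak2. With the summed muscle level as a covariate they were 0.32, 0.22 and -0.38, and none of these 3 genes passed (edgeR adjusted p = 0.153, 0.436 and 0.311), in a fit that called 12 higher and 4 lower genes over the whole table. That level was 90.2 to 642 CPM with MS275 and 6.11 to 56.0 CPM in vehicle, without overlap, so this fit cannot well separate it from treatment. The part of the endothelial, neuronal and satellite glia shifts in these changes was not tested.

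Around these 10 genes, 64 further genes of the pathway in 6 lists were read, of which 58 could be tested. Of these, 4 rose, 2 fell and 52 did not pass, so 10.3% were called, against 11.0% of all genes. Their median log2 fold change was 0.02. Groups did not overlap for 13 of the 58, against 33.8% of all genes, so the cases named below are not particular to the pathway. The lists were drawn up by role and not by response, though with earlier results of these data known.

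Of 8 other ligand genes 4 could be tested, and none of them passed in edgeR. There 1 (Ctf1) had an unadjusted p under 0.05, as did 28.5% of all genes tested. Clcf1, which encodes a further ligand of the CNTF receptor, had 1.07 ± 0.43 CPM with MS275 and 0.86 ± 0.26 CPM in vehicle (log2 fold change 0.29, edgeR adjusted p = 0.6). Il6 had 18, 41 and 11 reads with MS275 and 16, 36 and 19 reads in vehicle, a log2 fold change of 0.05 with an interval of -0.80 to 0.89. Ctf1, which encodes cardiotrophin-1, was below vehicle in all MS275 libraries, at 1.05 ± 0.15 CPM with MS275 and 1.53 ± 0.13 CPM in vehicle, without passing (log2 fold change -0.54, edgeR adjusted p = 0.103).

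Ebi3, which encodes a subunit of interleukin-27, had 43, 26 and 18 reads with MS275 and 24, 11 and 29 reads in vehicle (log2 fold change 0.46, interval -0.60 to 1.52, edgeR adjusted p = 0.564).

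The other 4 ligand genes had too few reads for the test. Il11 had 6 to 10 reads per library with MS275 and 6 to 10 in vehicle, Osm, which encodes oncostatin M, 1 to 4 with MS275 and 1 to 5 in vehicle, and Il27 1 to 5 with MS275 and 0 to 2 in vehicle. Il31 had 0 reads in all 6 libraries. At this depth no change in these 4 was detectable. Of the 3 other receptor genes (Il11ra1, Il27ra and Il31ra) none passed in edgeR, and 1 had an unadjusted p under 0.05, against 28.5% of all genes. This was Il27ra, with 13, 11 and 11 reads with MS275 and 23, 32 and 14 reads in vehicle (log2 fold change -0.84, edgeR adjusted p = 0.13).

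Downstream, Stat3 did not pass. This gene, whose product is the main transducer of gp130, had 407, 462 and 403 CPM in MS275 replicates 1, 2 and 3, against 420, 446 and 427 CPM in vehicle replicates 1, 2 and 3 (log2 fold change -0.02, interval -0.15 to 0.10, edgeR adjusted p = 0.815). Of 8 JAK and STAT genes outside the group, Stat2 rose, a transducer of type I interferon rather than of gp130. It averaged 92.4 ± 3.89 CPM with MS275 and 78.4 ± 6.37 CPM in vehicle (log2 fold change 0.24, SE 0.06, edgeR adjusted p = 0.0398). Without any one of MS275 replicates 2 and 3 and the 3 vehicle libraries its adjusted p was 0.0578 to 0.118. Apof overlaps Stat2 in RefSeq. The counts have a row for ambiguous reads, and whether reads of this overlap went there is not known. The other 7 did not pass, Tyk2 and Jak3 among them.

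Of 14 further negative regulators 1 rose and 1 fell, where 11.0% of all genes were called. Socs2, best known as a brake on growth hormone signalling, had 55.6, 59.2 and 53.2 CPM in MS275 replicates 1, 2 and 3, against 36.2, 40.8 and 46.1 CPM in vehicle replicates 1, 2 and 3. Its log2 fold change was 0.45 (SE 0.08, edgeR adjusted p = 0.0117), the opposite sign to the fitted value of Socs3. The difference between the 2 genes was not tested. Pias3, whose product inhibits activated STAT3, had 15.7, 17.8 and 16.5 CPM with MS275, against 20.1, 21.5 and 21.8 CPM in vehicle, and fell by 0.35 on the log2 scale (SE 0.07, edgeR adjusted p = 0.0179). All MS275 libraries were above all vehicle libraries for Socs2, and below them for Pias3. RefSeq also places Gm33230 over Socs2 and Nudt17 over Pias3, and how reads in these overlaps were assigned is not known. The adjusted p of Socs2 was 0.0648 without vehicle replicate 2, and that of Pias3 was 0.0533 to 0.088 without MS275 replicate 3 or any vehicle library.

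Of 9 adaptors that link gp130 to the MAPK and PI3K routes, 1 passed, where 11.0% of all genes were called. Sos2, a Ras exchange factor, fell by 0.21 on the log2 scale (31.2 ± 1.84 CPM with MS275 and 36.3 ± 1.47 CPM in vehicle, edgeR adjusted p = 0.0495). With RLE size factors its adjusted p was 0.0548, and without MS275 replicate 3 or any vehicle library 0.0852 to 0.189. Ptpn11, the phosphatase SHP2 that binds gp130, averaged 197.9 ± 2.99 CPM with MS275 and 198.4 ± 5.81 CPM in vehicle.

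Of 22 genes known to respond to STAT3 in injured or inflamed tissue, 20 could be tested, 2 rose and 0 fell, with a median log2 fold change of 0.08 against 0.002 for all genes. Of all genes tested 11.0% were called, and the interquartile range of their log2 fold changes was -0.13 to 0.13. Irf1, a transcription factor gene also known from interferon responses, had 19.4, 20.0 and 20.0 CPM in MS275 replicates 1, 2 and 3, against 14.6, 15.2 and 15.2 CPM in vehicle replicates 1, 2 and 3 (log2 fold change 0.40, SE 0.06, edgeR adjusted p = 0.0068). Il4ra, the interleukin-4 receptor alpha chain, averaged 66.6 ± 6.56 CPM with MS275 and 54.9 ± 4.41 CPM in vehicle (log2 fold change 0.28, edgeR adjusted p = 0.048). Both lay above vehicle in all MS275 libraries, and Il4ra did not pass in limma voom (adjusted p = 0.0527) or when MS275 replicate 2 or any vehicle library was left out (adjusted p 0.0681 to 0.166).

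The other 18 genes tested in that list did not pass. Gap43, a growth cone protein gene, averaged 221 ± 7.60 CPM with MS275 and 191 ± 19.9 CPM in vehicle (log2 fold change 0.21, edgeR adjusted p = 0.089), and Gal, the neuropeptide galanin, 18.3 ± 2.20 CPM with MS275 and 14.6 ± 0.76 CPM in vehicle (0.33, adjusted p = 0.054). Atf3, the injury-induced transcription factor, averaged 47.4 ± 13.2 CPM with MS275 and 47.2 ± 5.44 CPM in vehicle. Sprr1a, a gene induced by nerve injury, varied widely, with 1.46, 2.71 and 8.60 CPM with MS275 and 2.82, 4.59 and 2.17 CPM in vehicle (log2 fold change 0.36, edgeR adjusted p = 0.703). These 4 were named after their values were seen. The 2 genes of the list that could not be tested had few reads. Vip had 7, 10 and 4 reads with MS275 and 2, 5 and 0 reads in vehicle. Reg3b had 7, 6 and 8 reads with MS275 and 0, 3 and 0 reads in vehicle. In CPM, all MS275 libraries were above all vehicle libraries for both, as for 15.9% of all genes tested.

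**Figure D3:**
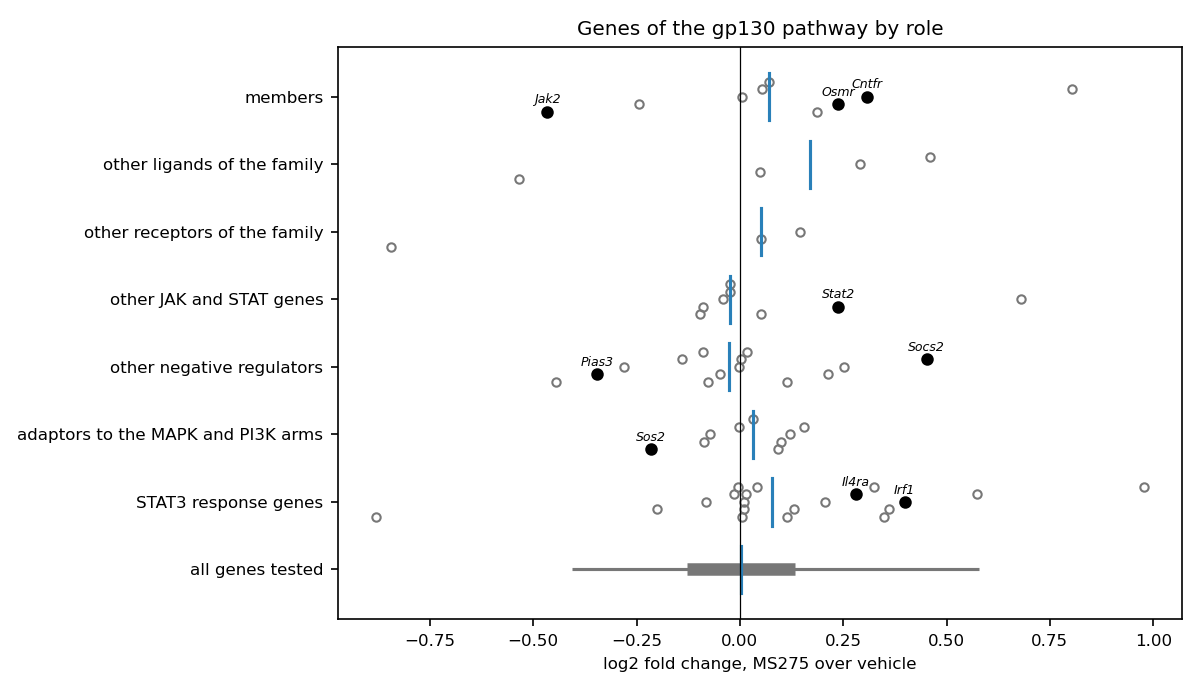
Log2 fold change of MS275 over vehicle for each gene tested, by role (rows). Filled points passed an adjusted p of 0.05, blue ticks are medians, and the lowest row gives all 16819 genes tested as the range from the 5th to the 95th percentile (thin line, -0.41 to 0.58) and the interquartile range (thick line). The points scatter on both sides of 0 in most rows.

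Over the 6 libraries, the genes whose log2 CPM followed those of the changed members most closely were Mrpl21, Prrt1 and Tbxa2r for Cntfr (Pearson r of 0.998, 0.998 and 0.996), Armcx4, Peli1 and Suclg1 for Osmr (0.995, 0.994 and 0.989), and Csad, Ibtk and Mon2 for Jak2 (0.999, 0.998 and 0.998). For Socs3 they were Atad2, Aspm and Snx16 (0.996, 0.993 and 0.988). With 15080 genes to compare and 6 libraries that share their treatment, such values are common: the third closest partner of a gene had a median r of 0.988 over all genes. The closest to the other members were Mif1 for Il6st and Lifr (0.990 and 0.977), Supt4a for Il6ra (0.998) and Eci2 for Jak1 (0.991).

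The ATAC lists address whether the chromatin of these genes was open at the start and within the gene, and whether the same regions were called under both treatments. After overlapping entries were merged, 161788 regions were in the MS275 list and 177906 in the vehicle list. The lists combine replicates, so there is no test. Fold enrichment and q are the authors' own values, and they rank regions within a list. Within 1000 bp of an annotated start, 8 of the 10 genes had a region in the MS275 list and the same 8 in the vehicle list, where 90.4% and 91.2% of all tested genes with a listed start had one. The exceptions were Cntf and Cntfr, and Cntf, which was not tested in RNA, lies outside the genes that these shares cover. Counted per gene over all its listed starts, none had a start region in 1 list alone, as 1.71% of genes did in the MS275 list and 2.53% in the vehicle list. Lifr has 2 listed starts, and the one farther into the gene had a region in the vehicle list alone (chr15:7141033-7141496, fold 1.70). Its other start had a region in both lists, and a further one in the MS275 list alone (chr15:7128626-7129098, fold 1.66).

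The start regions of Il6st, Lifr, Jak1 and Jak2 were above at least 96.3% of the regions of their list in fold enrichment. The Il6st start region had a fold enrichment of 6.94 in the MS275 list, above 99.1% of its regions, and of 7.36 in the vehicle list, above 99.5%. The Jak1 start region had 5.73 in the MS275 list and 5.42 in the vehicle list, and that of Lifr 4.58 in the MS275 list and 3.77 in the vehicle list. Jak2, whose transcript fell, had a start region of 4.77 in the MS275 list (chr19:29251154-29252206) and of 4.79 in the vehicle list (chr19:29251119-29252239), above 97.5% and 97.9% of each list's regions. Its summits lay 134 and 119 bp before the start, inside the promoter window printed above. The Socs3 start region had 3.33 in the MS275 list and 3.68 in the vehicle list, with summits 42 and 51 bp after the start. Osmr had 2.35 in the MS275 list and 2.33 in the vehicle list, and Il6ra 2.80 in the MS275 list and 2.37 in the vehicle list. At Lif, the region with its summit nearest the start (104 bp in the MS275 list and 132 bp in the vehicle list) had a fold of 1.59 in the MS275 list and 1.93 in the vehicle list. The MS275 list had a further region with its summit 624 bp from the start (fold 1.64), which overlapped the same vehicle region. A region of Lif farther in and found in both, with summits 1163 bp from the start in the MS275 list and 1324 bp in the vehicle list, had 2.06 in the MS275 list and 1.91 in the vehicle list. Within 1000 bp of the Lif start, the MS275 list thus had 3 regions and the vehicle list 1.

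Cntfr rose in RNA with no region at any of its 6 listed starts in either list. The summit nearest to a listed start lay 6565 bp downstream of it in the MS275 list and 6246 bp downstream in the vehicle list, and that start is one within the gene, not at its outer end. Of 8 regions over the gene in the MS275 list and 7 in the vehicle list, 5 of each were shared. The most enriched in the MS275 list, at chr4:41664682-41665584, had a fold of 2.21, and the vehicle region overlapping it one of 1.52, while in the vehicle list the most enriched was at chr4:41663371-41664148 with a fold of 1.88. These regions lie within the gene, and whether in exon or intron is not given by the table used here.

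Within the spans of all 10 genes and 1000 bp to either side, the MS275 list had 88 regions and the vehicle list 89, of which 49 (55.7%) and 47 (52.8%) overlapped a region of the other list. Over the whole lists 52.8% of MS275 regions and 47.5% of vehicle regions did. What was shared went with enrichment. Of regions with a fold of 2 or more, a limit chosen after the values were seen, all 19 in the MS275 list and all 17 in the vehicle list were in both, against 86.1% and 86.8% of such regions in the whole lists. Of those under 2, 30 of 69 in the MS275 list (43.5%) and 30 of 72 in the vehicle list (41.7%) were shared, near the 42.2% and 37.5% of the whole lists. Jak2 had 4 regions in the MS275 list and 8 in the vehicle list, 2 of each shared. The 6 found in the vehicle list alone had folds of 1.46 to 1.93. Osmr had 7 regions in the MS275 list and 5 in the vehicle list, again 2 of each shared. Lifr and Jak1, which span the most sequence, had 23 and 20 regions in the MS275 list and 22 and 19 in the vehicle list.

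**Figure D4:**
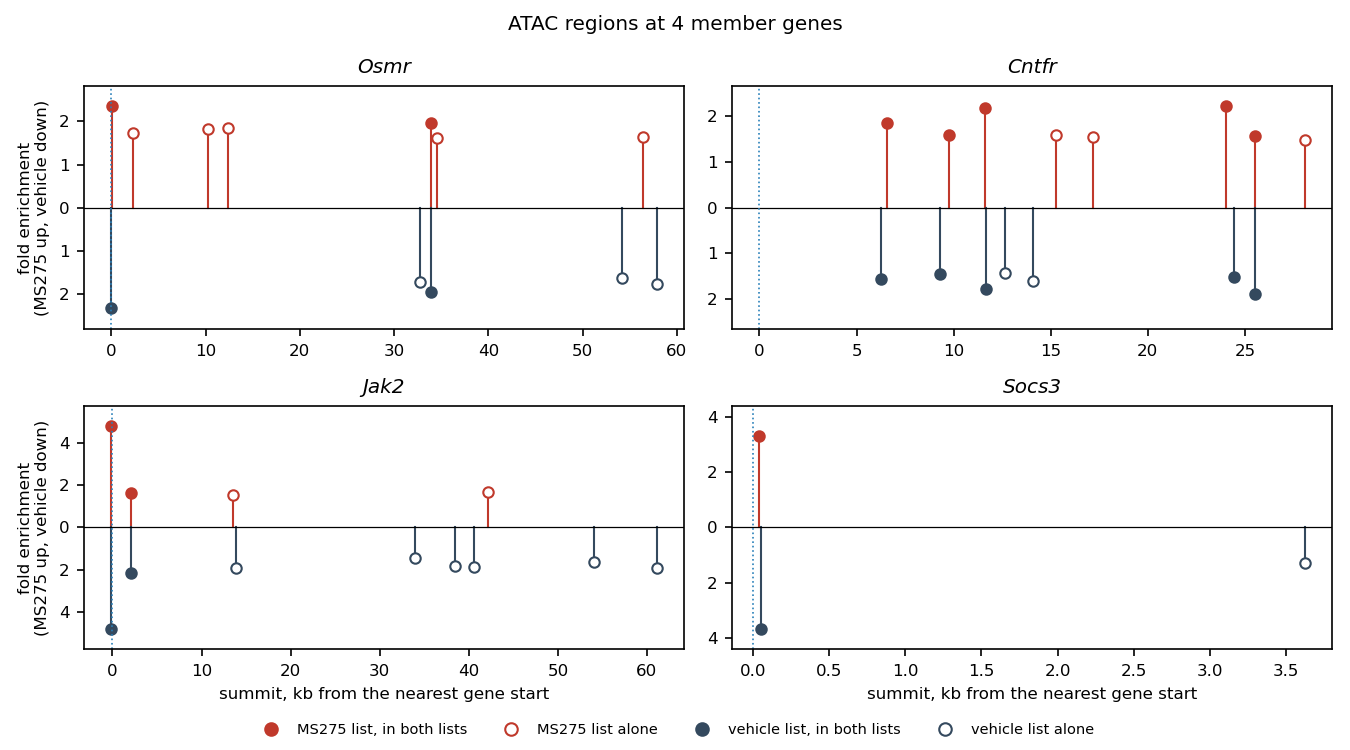
Regions at Osmr, Cntfr, Jak2 and Socs3, placed by the distance of the summit from the nearest annotated start in kb (horizontal axis, positive into the gene), with the authors' fold enrichment as height, MS275 upwards and vehicle downwards. Filled points are in both lists and open points in 1 list alone. The starts of Osmr, Jak2 and Socs3 carry a region in both lists at like fold, and Cntfr has none within 5 kb of a start.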

How the data were processed

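The authors deposited, for each RNA library, whole-number read counts per gene symbol, not normalised, and for ATAC-seq 1 list of combined peaks per treatment, whose layout gives each entry the authors' score, fold enrichment (a ratio), -log10 q and summit position. The submitters' processing notes name mm10, FastQC 0.10.1, STAR 2.7.0, R 3.5.0, limma 3.38.3 and edgeR 3.24.3. What counted reads, with which strand setting, and what called peaks was not given in the sources used here. Per the labels' protocols, RNA was selected for poly(A) and made into directional paired-end libraries.

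Left out were 5 rows with no gene name, which held 18.9% to 20.6% of the reads. Among them was a row for ambiguous reads, with 0.59% to 0.63% of the reads per library. Models were fitted to the counts in R 4.3.3 with edgeR 4.0.16 (filterByExpr, TMM, quasi-likelihood, two-sided, treatment as the only term) over 16819 genes, after a test on simulated data. SE is the log2 fold change over the square root of F, and intervals are at 95%. Assigned reads of 34992533 to 60370523 per library set the precision, and the ATAC depth is unknown here. Libraries of a group all differed by more than sampling noise (chi-square per degree of freedom of 7.20 to 53.2). Gene starts, spans and promoter sequences came from RefSeq tables of GRCm38.p6, the assembly of mm10, which held all 10 genes. Named were all 10 genes, up to 4 called genes per pathway list and the genes too low to test, the 3 genes most like each changed gene and Socs3, and promoters of changed genes with a start region and of Socs3. Other pathway genes that were tested and not called were also named outside this rule, among them Stat3, Il31ra, Il27ra, Ptpn11 and the tested ligand genes. The part of the plan that concerned the gp130 protein sequence was not used here, and for the other members only the closest of the 3 like genes is printed, none for Lif. Levels of different genes were not compared, since transcript lengths were not used. Some genes of the pathway are not reported here and were left out of the lists and their counts. Genes and lists were chosen with earlier results of these data known. Marker lists held the symbols of the count table except Adgre1, Hbb-bs and Hbb-bt. Alternatives were RLE size factors, no filter beyond 1 count, leaving out each library, a block for the replicate number, DESeq2 1.42.0, limma 3.58.1 voom, a muscle covariate, mitochondrial and haemoglobin genes left out, and, for the peak lists, a minimum -log10 q of 5, equal list sizes, 50% overlap, and other windows.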

Additional observations from a re-analysis of the deposited data

How the results depend on the processing

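With 2 genes of the group higher and 1 lower, the counts were 1 and 1 in limma voom and 0 and 0 with the muscle covariate, under which the whole table had 12 higher and 4 lower genes, against 858 and 991 without it. The muscle level did not overlap between the treatments, so the covariate fit cannot well separate the 2. With 1 library left out they ranged from 1 to 2 higher and from 0 to 1 lower, while those of the whole table ranged from 127 to 1388 higher and from 134 to 1375 lower. The counts of 4 higher and 2 lower genes in the other lists became 8 higher with no filter beyond 1 count, 7 higher with DESeq2, 1 lower with RLE size factors and 0 and 0 with the covariate. With 1 library left out they ranged from 1 to 6 higher and from 0 to 4 lower. Cntfr passed in 12 of 13 alternatives (log2 fold change 0.28 to 0.33), Jak2 in 10 (-0.57 to -0.37) and Osmr in 6 (0.19 to 0.31). The sign turned for 2 genes that had not passed: Il6ra ranged from -0.059 (without MS275 replicate 1) to 0.32 with 1 library left out and was -0.37 with the covariate, and Jak1 ranged from -0.0091 (without vehicle replicate 2) to 0.022 and was -0.037 with the covariate. These genes did not pass under any of these settings.

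Same-numbered libraries correlated in their deviations at 0.02, 0.11 and -0.06, so the replicate numbers were not taken to pair samples. With the replicate block the group had 2 higher and 1 lower genes, with edgeR adjusted p of 0.00662 for Cntfr, 0.0191 for Osmr and 0.00881 for Jak2. Of all genes tested, 981 were higher and 1107 lower. With a -log10 q of at least 5, 17 regions remained over the 10 genes in the MS275 list and 21 in the vehicle list, 11 of each in both. Low reads limit Lif, Cntf and the other ligands.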
